A study of Mus musculus with 12 samples.

Results

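Flowthrough is the cell suspension of a mouse brain that remains after astrocytes have been held back on magnetic beads. The 4 flowthrough libraries, of 12 RNA-seq libraries in all, were taken by the word flow in their titles, and they compare 2 brains whose astrocytes had lost the clock gene Bmal1 (official symbol Arntl) with 2 control brains. All animals were on a C57BL/6 background, carried floxed Bmal1 alleles, were gavaged with tamoxifen at 2 months of age (2 mg daily, 5 days), lived in alternating light and dark, and were sampled at 7 months. Control animals (WT, numbers 201 and 202 by their titles) had no Cre. The astrocyte library numbered 202, read as the same animal, is WT by its title but knockout by its genotype field. Groups here follow the titles. Knockout animals (aKO, numbers 203 and 205) carried Aldh1l1-CreERT2, in which the promoter of the astrocyte gene Aldh1l1 drives a tamoxifen-inducible recombinase, so the cells sequenced here were, by that design, mostly not the cells in which the gene was deleted. Brains were digested with collagenase, cleared of debris and passed over beads that bind the astrocyte surface epitope ACSA-2. The other 8 libraries are the bead-held astrocytes of 3 WT and 5 aKO animals, and they enter only where stated. The sources used here do not give sex, the time of day of collection or the meaning of the letter b that all 4 titles carry.

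Flowthrough of a digested brain holds microglia, the resident macrophages of the brain, with cells of the choroid plexus, the vessels and the blood, and those oligodendrocytes and neurons that survive dissociation. BMAL1 pairs with CLOCK and binds E-boxes to drive the Per and Cry genes, whose products repress it, and the nuclear receptors of the Nr1d and Ror families control its own transcription. Clocks also run in cells that do not carry the deletion, and clock-controlled transcripts rise and fall over the day. In a bulk library, fewer cells of a type and less RNA per cell cannot be told apart.

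Between 33019572 and 53868165 reads were assigned to genes per library. Values below are CPM (counts scaled to library size, with TMM factors over the 4 libraries), log2 fold changes (aKO over WT) with standard errors (SE) come from edgeR, and pairs of values are given in the order 201 and 202, then 203 and 205. Transthyretin (Ttr), the chief transcript of the choroid plexus, took 19.8% and 8.17% of the counts in WT and 18.1% and 32.1% in aKO. Transcripts of the mitochondrial chromosome took 5.09% and 12.9% in WT and 7.99% and 4.81% in aKO. The libraries did not sort by genotype. Over 20998 genes the highest correlation of log2 CPM between libraries was that of WT 201 with aKO 203 (Pearson r = 0.973) and the lowest that of WT 202 with aKO 205 (r = 0.864), while WT 201 with WT 202 gave 0.939 and aKO 203 with aKO 205 gave 0.918. The labels do not say whether dissociation or sequencing was done in batches. The 4 Y-linked genes examined were counted in every library and Xist reached at most 0.365 CPM.

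The marker genes show what these cell suspensions held. The summed counts of 12 choroid plexus markers made up 20.9% and 8.98% of the WT libraries and 18.9% and 33.5% of the aKO libraries. Microglial markers (16 genes) made up 1.48% and 1.25% in WT and 1.05% and 0.724% in aKO, and this sum was lower in both aKO libraries. Astrocyte markers (20 genes) were at 0.136% and 0.772% in WT and 0.283% and 0.0784% in aKO, so some astrocyte RNA was left in every flowthrough, most of it in WT 202. WT 202 was also the highest for oligodendrocyte markers (0.676%, against 0.106% in WT 201, 0.252% in aKO 203 and 0.109% in aKO 205) and for neuron markers (0.0709%, against 0.0068% in WT 201, 0.0290% in aKO 203 and 0.0067% in aKO 205). Library aKO 205 was the highest for choroid plexus and the lowest for microglial, astrocyte, endothelial, mural and ependymal markers. Erythroid markers, which are dominated by the haemoglobin genes, were at 0.330% and 0.825% in WT and 1.38% and 0.525% in aKO. Endothelial markers were at 0.0853% and 0.141% in WT and 0.117% and 0.0467% in aKO.

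**Figure D1:**
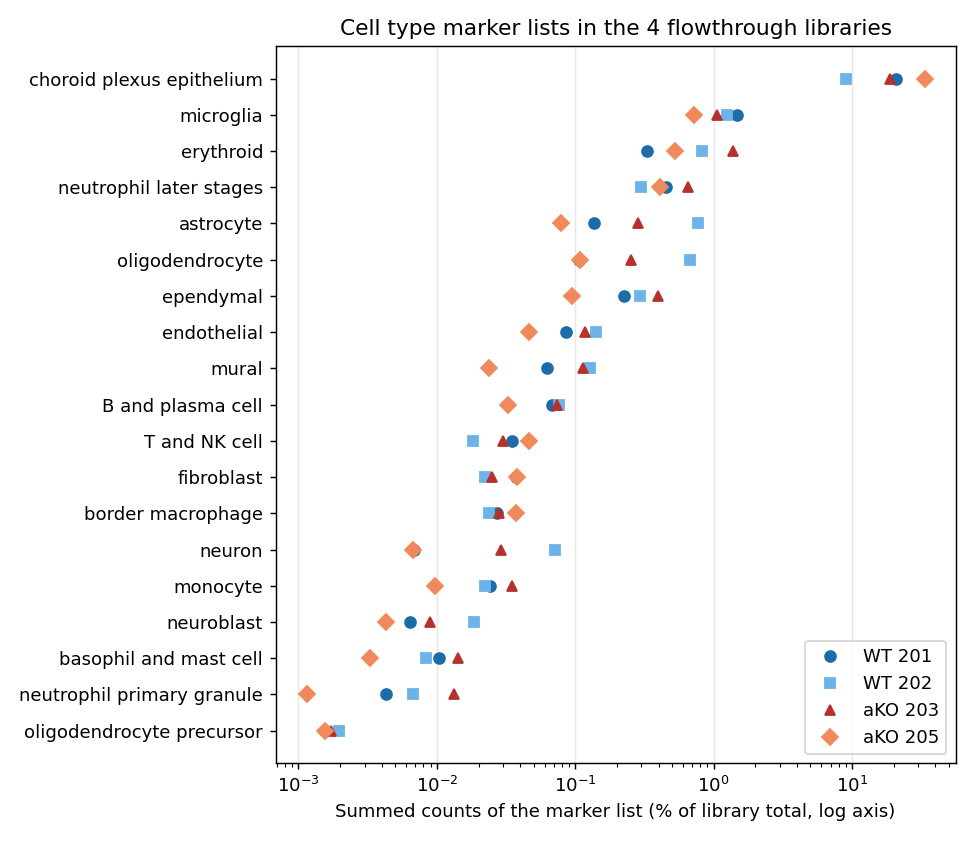
Summed counts of each cell type marker list as a percentage of the library total (log axis), 1 point per library, for 2 WT (blue) and 2 aKO (red) flowthrough libraries. WT 202 stands to the right for astrocyte (0.772%), oligodendrocyte (0.676%) and neuron (0.0709%) markers, and aKO 205 for choroid plexus markers (33.5%).

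No single gene passed the test between genotypes with 2 libraries a side. Of 18676 genes tested, 0 (0%) passed the quasi-likelihood test of edgeR after Benjamini-Hochberg adjustment (lowest adjusted p 0.950), and 515 (2.76%) had an unadjusted p under 0.05. Of these, 83 (0.444%) were higher and 432 (2.31%) lower in aKO, a split of 16.1% higher that became 45.3% when all 12 libraries shared 1 fit, 36.8% when the gene length trend described below was removed, 67.1% without WT 202 and 41.2% without aKO 205. DESeq2 called 5 genes (0.0268%) at an adjusted p under 0.05 (789 unadjusted), and limma voom 0 (527 unadjusted). In 2886 genes (15.5%) both aKO libraries lay above both WT libraries, and in 3307 genes (17.7%) both lay below. These shares are the background against which the lists are read. Among 8293 genes with a mean log2 CPM of at least 3 they were 14.9% above and 22.2% below, and they varied with gene length as described below. For a single value, 2 against 2 libraries cannot give an exact permutation p below 0.333. P-values measure the spread between these libraries, each read as 1 animal from the number in its title.

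Gene length set the libraries apart as well. With protein-coding genes in 10 equal classes of length, the median gene of the second class (1422 to 2013 bases) lay 0.66 log2 units below the mean of the 4 libraries in aKO 205 and 0.33 above it in WT 202. In the longest class the same measure was 0.20 above in aKO 205 and 0.05 below in WT 202. Library WT 201 ran between 0.22 and -0.08 and aKO 203 between 0.35 and -0.10. The median log2 fold change was accordingly -0.41 in the second class and 0.09 in the longest, and the share of genes lower in both aKO libraries was 28.8% in the third class and 10.4% in the longest. The shortest class (201 to 1421 bases) broke this order, with a median log2 fold change of 0.0049. In it 24.0% of genes were higher and 11.6% lower in both aKO libraries. From the second class on, WT 201 and aKO 203 ran close together (0.22 and 0.21 in the second class). The length trend thus entered the genotype contrast mainly through aKO 205 and WT 202. Its part in each result was not tested beyond a fit with the trend removed.

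**Figure D2:**
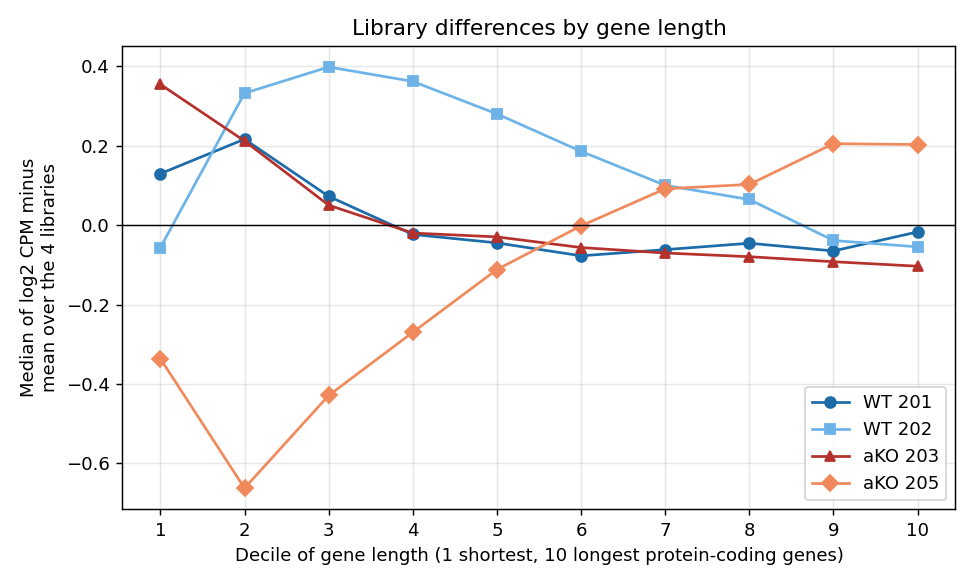
Median over protein-coding genes of log2 CPM minus the mean of the 4 libraries, for 10 classes of gene length from shortest to longest, 1 line per library. The line of aKO 205 falls from -0.34 in the shortest class to -0.66 in the second and then climbs to 0.20 in the longest. That of WT 202 peaks at 0.40 in the third class.

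Microglial genes did not move as a block. Some of their surface receptors were lower in both aKO libraries, and others, among them Cx3cr1 and Csf1r, overlapped. Of 16 microglial markers, 10 had a log2 fold change below 0 and 6 above (of all genes 53.2% below and 46.8% above). Their median was -0.33, beside -0.07 over all genes and -0.23 over genes with a mean log2 CPM of at least 5. Without WT 201 the list's median was 0.15, and with the gene length trend removed it was -0.18. In 5 markers the aKO libraries lay below both WT libraries (17.7% of all genes), and in 1 (C1qa) above (15.5% of all genes). Of protein-coding genes of 2015 to 2566 bases, the class that holds P2ry12, Gpr34 and Fcrls, 28.8% lay below. P2ry12, the purinergic receptor by which resting microglia sense injury, was at 2211 and 1951 CPM in WT and 912 and 671 CPM in aKO (log2 fold change -1.39, SE 0.62). Gpr34, a receptor for lysophosphatidylserine, was at 956 and 658 CPM in WT and 240 and 213 CPM in aKO (-1.83, SE 0.64). Fcrls, an Fc receptor-like scavenger protein specific to microglia, was at 839 and 968 CPM in WT and 322 and 224 CPM in aKO (-1.73, SE 0.63). In all 3 genes the groups were apart by more than the difference within either group. Olfml3, a secreted olfactomedin-like protein, was at 1155 and 925 CPM in WT and 644 and 183 CPM in aKO. P2ry13, a purinergic receptor related to P2ry12, was at 120 and 398 CPM in WT and 107 and 117 CPM in aKO, so WT 201 lay close to the aKO pair. Apart from C1qa, the remaining markers overlapped between genotypes. C1qb, a chain of the complement component that opens the classical pathway, was at 4270 and 2253 CPM in WT and 4094 and 1076 CPM in aKO. Cx3cr1, the fractalkine receptor, was at 732 and 945 CPM in WT and 556 and 738 CPM in aKO. Csf1r, the receptor whose signal keeps microglia alive, was at 732 and 490 CPM in WT and 576 and 854 CPM in aKO, so its groups overlapped.

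Set against the microglial RNA of the same library, the markers kept this divergence. Per 1000 counts of all 16 markers, Gpr34 took 63.5 and 58.5 in WT and 22.3 and 27.5 in aKO, and P2ry12 took 147 and 173 in WT and 84.7 and 86.6 in aKO. Fcrls took 55.8 and 86.1 in WT and 29.9 and 28.9 in aKO. C1qa, C1qc, Tmem119 and Csf1r were higher in both aKO libraries on this scale, and Csf1r for instance took 48.7 and 43.6 in WT and 53.5 and 110 in aKO. Because the markers share 1 sum, some must go up where others go down. The list of 14 genes of disease-associated microglia, the lipid-handling state of microglia near lesions, gave 6 above 0 and 8 below with a median of -0.12, which was 0.05 in the fit of all 12 libraries, where the median of all genes also moved up, and 0.03 with the length trend removed. Within that list Apoe, the lipid carrier of glia, was at 741 and 953 CPM in WT and 1392 and 826 CPM in aKO, and Tyrobp, the adaptor of the TREM2 receptor, at 1890 and 805 CPM in WT and 1815 and 3366 CPM in aKO. Both overlapped between genotypes.

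Lysosomal genes leaned lower in aKO. Of 14 genes, 12 had a log2 fold change below 0, 6 had both aKO libraries below both WT libraries (17.7% of all genes) and 1 (Lamp1) had both above (15.5% of all genes). The share below was 22.2% of genes with a mean log2 CPM of at least 3. It was 28.8% of protein-coding genes of 2015 to 2566 bases (median log2 fold change -0.40), and the list's median length was 2113 bases. The list's median log2 fold change was -0.89, and -0.69 with the length trend removed. Ctsd, which encodes the aspartic protease cathepsin D, was at 5002 and 4803 CPM in WT and 2467 and 1276 CPM in aKO (log2 fold change -1.39, SE 0.64). Ctsb, the cysteine protease cathepsin B, was at 2192 and 2222 CPM in WT and 807 and 448 CPM in aKO (-1.81, SE 0.65). In both cathepsins the WT libraries nearly coincided. Ctss, the cathepsin of antigen-presenting cells, was at 8404 and 4013 CPM in WT and 5708 and 802 CPM in aKO, and Cd68, a lysosomal glycoprotein of macrophages, was at 1439 and 606 CPM in WT and 948 and 183 CPM in aKO. Those 2 genes overlapped between genotypes and were set apart mainly by aKO 205. Ctsz, Lamp2 and Grn were also lower in both aKO libraries, with log2 fold changes of -1.71 for Ctsz and -1.35 for Lamp2. The list as a whole took 2.13% and 1.72% of counts in WT and 1.26% and 0.447% in aKO. Microglial markers moved with it, and against them the lysosomal sum stood at 144% and 138% in WT and 120% and 61.7% in aKO.

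Genes of antigen presentation by MHC class II took 0.434% and 0.225% of counts in WT and 0.234% and 0.0566% in aKO, where aKO 205 stood lowest. Of 7 genes, 6 had a log2 fold change below 0 (median -0.91) and 1 (H2-Eb1) had both aKO libraries below both WT libraries (17.7% of all genes). Cd74, the invariant chain, was at 2829 and 1245 CPM in WT and 1375 and 273 CPM in aKO (-1.31, SE 0.86), and H2-Aa, an alpha chain, was at 647 and 282 CPM in WT and 495 and 98.4 CPM in aKO. In each of them aKO 203 lay within the WT range or close to it. Without aKO 203 the list's median was -2.25 and without aKO 205 it was -0.24. MHC class I genes had a median of 0.03 over 9 members, 3 of them higher (15.5% of all genes) and 1 lower (17.7% of all genes) in both aKO libraries. B2m, the shared light chain of class I, was at 4471 and 1977 CPM in WT and 4073 and 1743 CPM in aKO.

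Interferon-stimulated genes, whose promoters often hold a repeated GAAA element, leaned lower in aKO flowthrough. The sequences of 2 of their promoters are shown because Ifit3 had the widest gap between genotypes in the list and Isg15 did not separate them, and their elements are in capitals. The bases are the 250 before the gene start, from RefSeq on GRCm38.p6: Ifit3 at chr19:34583279-34583528 (plus strand) and Isg15 at chr4:156200819-156201068 (minus strand). The pattern searched was a GAAA followed, after any 2 bases, by another GAAA, or TTTC spaced likewise on the other strand.
Ifit3: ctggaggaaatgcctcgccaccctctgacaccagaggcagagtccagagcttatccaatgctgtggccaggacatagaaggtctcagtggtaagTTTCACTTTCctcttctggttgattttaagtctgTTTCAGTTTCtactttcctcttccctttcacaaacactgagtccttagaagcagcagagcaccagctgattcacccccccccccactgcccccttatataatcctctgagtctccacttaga
Isg15: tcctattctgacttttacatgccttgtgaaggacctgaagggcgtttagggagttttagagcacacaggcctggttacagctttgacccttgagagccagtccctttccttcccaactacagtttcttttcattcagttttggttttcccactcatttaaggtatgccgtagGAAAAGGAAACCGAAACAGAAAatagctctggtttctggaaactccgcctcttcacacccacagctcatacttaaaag
The Ifit3 window held 2 matches, starting 156 and 122 bases before the gene start, and the Isg15 window held 3 overlapping ones, starting at 78, 72 and 66 bases before it. Of the 20 interferon genes, 14 matched a RefSeq promoter and 8 of those held the pattern (57.1%), where 3.46% of all 27025 promoters did. A match describes letters and not binding.

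Of the 20 interferon genes, 18 had a log2 fold change below 0, with a median of -0.72. In 7 both aKO libraries lay below both WT libraries (17.7% of all genes) and in 2 above (15.5% of all genes). Ifit3, an interferon-induced protein with tetratricopeptide repeats that binds its antiviral partner Ifit1, was at 32.4 and 40.9 CPM in WT and 9.85 and 4.08 CPM in aKO (log2 fold change -2.39, SE 0.64). Usp18, the protease that strips ISG15 from proteins and damps the interferon receptor, was at 29.5 and 27.3 CPM in WT and 12.7 and 3.83 CPM in aKO (-1.78, SE 0.67). The WT libraries again lay close together and aKO 205 lay lowest. Isg15, the ubiquitin-like modifier itself, was at 19.5 and 18.0 CPM in WT and 20.5 and 7.00 CPM in aKO, so aKO 203 lay level with WT. Bst2, which tethers budding virus, was at 148 and 70.0 CPM in WT and 122 and 69.4 CPM in aKO. Xaf1 was at 57.2 and 31.9 CPM in WT and 50.9 and 32.4 CPM in aKO, also overlapping. Ifi27l2a and Oas2 ran the other way, and Ifi27l2a was at 43.3 and 19.2 CPM in WT and 44.6 and 74.4 CPM in aKO. The summed list took 0.0408% and 0.0345% of counts in WT and 0.0322% and 0.0217% in aKO, but 2.75% and 2.77% of the microglial marker sum in WT and 3.07% and 3.00% in aKO. Reads of Ifit3 may be shared with its close copy Ifit3b.

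Most complement genes had a lower mean level in aKO. Of 9 complement genes tested (Cfb was under the count filter), 8 were below 0 and 4 had both aKO libraries below both WT libraries (17.7% of all genes), with a median of -0.36. C5ar1, the receptor for the anaphylatoxin C5a, was at 96.1 and 94.0 CPM in WT and 26.2 and 23.7 CPM in aKO (log2 fold change -1.93, SE 0.62). C3ar1, the receptor for C3a, was at 175 and 120 CPM in WT and 83.3 and 40.5 CPM in aKO (-1.26, SE 0.68). Among 15 chemokine and cytokine genes 10 were below 0 (median -0.39). In both aKO libraries 1 was lower (17.7% of all genes) and 1 higher (15.5% of all genes). Il1a, interleukin-1 alpha, was at 13.9 and 12.0 CPM in WT and 2.62 and 4.86 CPM in aKO (-1.79, SE 0.59). Tgfb1, which microglia need to keep their resting state, was at 5.11 and 1.51 CPM in WT and 5.36 and 37.1 CPM in aKO. The distance in Tgfb1 thus came from aKO 205. Ccl4, Ccl12, Ccl3 and Ccl2, the 4 with the highest mean CPM, overlapped between genotypes.

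Genes of later neutrophil stages took 0.454% and 0.298% of counts in WT and 0.648% and 0.408% in aKO, and some of them were higher in both aKO libraries. Of 11 genes of later neutrophil stages, 6 were above 0 and 4 had both aKO libraries above both WT libraries (15.5% of all genes), with a median of 0.42. Without aKO 203 that median was 0.0057 and without aKO 205 it was 1.02. S100a8, a subunit of the neutrophil alarmin calprotectin, was at 1535 and 727 CPM in WT and 2373 and 2072 CPM in aKO (log2 fold change 0.97, SE 0.65). S100a9, its partner, was at 764 and 338 CPM in WT and 1141 and 938 CPM in aKO. Ngp, a granule protein of immature neutrophils, was at 1279 and 902 CPM in WT and 1532 and 149 CPM in aKO. The early granule genes Elane, Mpo, Ms4a3, Prtn3 and Ctsg all overlapped (median 0.86, and -0.22 under voom), and Elane for instance was at 27.8 and 28.1 CPM in WT and 97.0 and 7.88 CPM in aKO. Haemoglobin genes overlapped too, with Hbb-bs at 1442 and 3419 CPM in WT and 6992 and 2639 CPM in aKO. Of 9 B and plasma cell genes tested (Pax5 was under the filter), 8 were below 0 and 4 had both aKO libraries below (17.7% of all genes). Ighm, the IgM heavy chain constant region, was at 206 and 276 CPM in WT and 97.7 and 39.6 CPM in aKO (-1.81, SE 0.71), while the kappa constant gene Igkc was at 259 and 216 CPM in WT and 414 and 230 CPM in aKO. Of 12 T and NK cell genes, 9 were below 0 and 3 above (median -0.39), and Ccl5, a chemokine of cytotoxic lymphocytes, was at 198 and 75.1 CPM in WT and 166 and 374 CPM in aKO.

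Border macrophages, which line the vessels and meninges of the brain, gave 3 genes above 0 and 6 below (median -0.05), and Pf4, a chemokine of these cells, was at 87.6 and 56.6 CPM in WT and 118 and 196 CPM in aKO. Monocyte genes gave 3 above and 3 below (median 0.10), and basophil and mast cell genes 3 above and 5 below (-0.23). In vessels, 7 endothelial genes were above 0 and 6 below (0.02), as were 4 and 6 mural genes (-0.03). Itm2a, an endothelial membrane protein, was at 294 and 538 CPM in WT and 258 and 42.4 CPM in aKO, and Acta2, the actin of smooth muscle, was at 222 and 443 CPM in WT and 443 and 37.2 CPM in aKO. The medians were 0.11 for 8 fibroblast genes, 0.13 for 10 ependymal genes, -0.22 for 11 cell cycle genes and 0.77 for 8 erythroid genes. The erythroid median was 0.050 without aKO 203, 1.29 without aKO 205 and 0.42 with the length trend removed. Oligodendrocyte genes gave 5 above and 8 below with a median of -0.04, which was 0.11 in the fit of 12 libraries with its shift of all genes, and Mbp, a myelin protein, was at 403 and 3637 CPM in WT and 1068 and 261 CPM in aKO. Astrocyte genes gave 1 above and 19 below (median -0.99) and neuron genes 1 above and 12 below (-0.81), and without WT 202 these medians were 0.82 and 1.80. Aldoc, the astrocyte aldolase, was at 150 and 2679 CPM in WT and 803 and 31.6 CPM in aKO. Of the precursor lists, 4 of 6 oligodendrocyte precursor genes (0.62) and 4 of 6 neuroblast genes (0.40) were above 0, at summed shares of at most 0.00197% and 0.0185% of a library. Of 12 choroid plexus genes 8 were above 0 (median 0.39), which was -0.029 without WT 202.

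**Figure D3:**
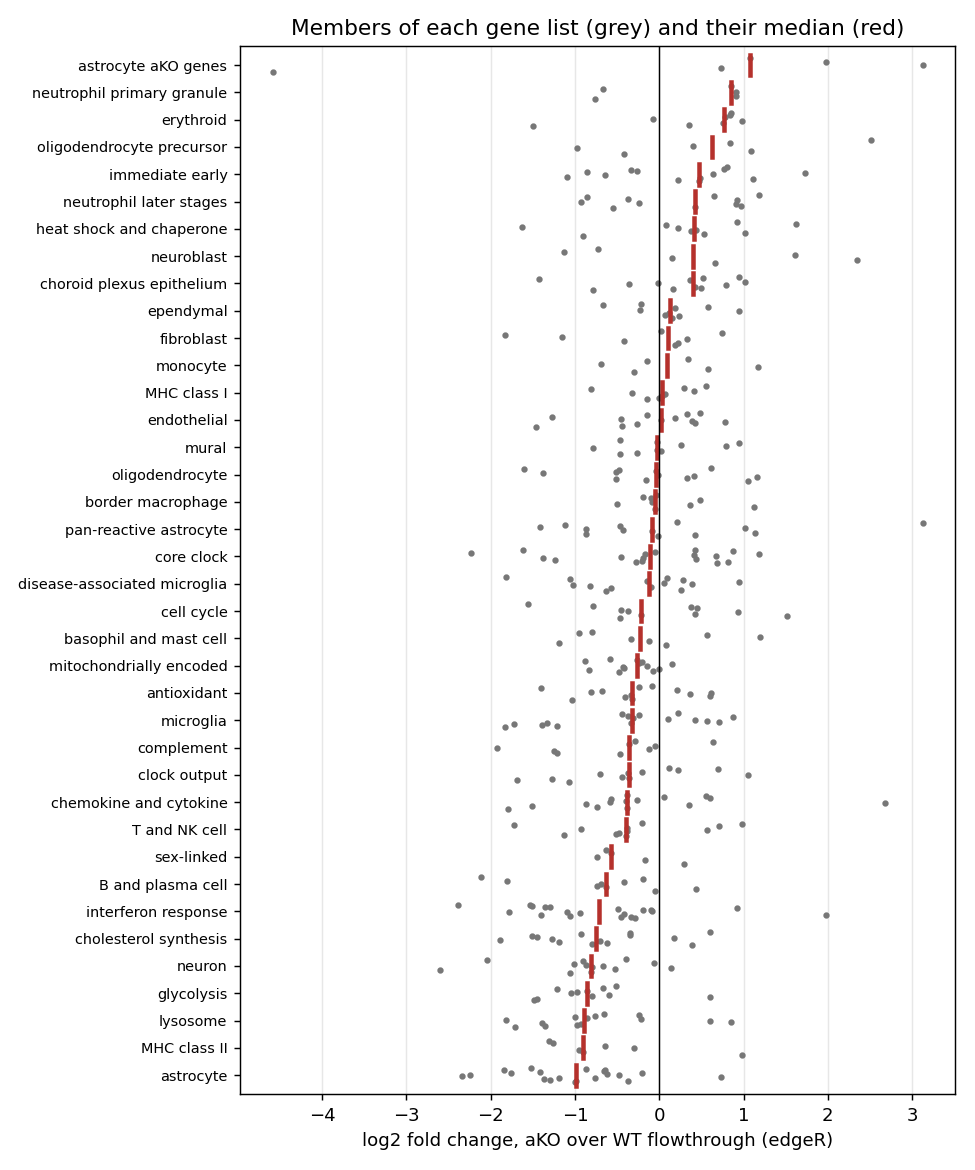
Log2 fold change (aKO over WT, edgeR) of every tested member (grey points) and median (red bars) of 38 gene lists, ordered by median. Astrocyte markers (median -0.99), MHC class II (-0.91), lysosome (-0.89), glycolysis (-0.86), neuron (-0.81), cholesterol synthesis (-0.75) and interferon response (-0.72) lie to the left, and no single gene in the plot passed the adjusted test.

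The circadian genes did not shift as a set. Of 18 core clock genes, 8 were above 0 and 10 below. In both aKO libraries 3 were higher (15.5% of all genes) and 3 lower (17.7% of all genes). The median was -0.11, and 0.02 with the length trend removed. In the fit of all 12 libraries it was 0.05, where the median of all genes moved likewise from -0.07 to 0.07. Arntl, the floxed gene, was at 3.26 and 3.96 CPM in WT and 3.57 and 1.69 CPM in aKO (log2 fold change -0.45, SE 0.69). Reads outside the deleted exons also count toward this gene, and most of these cells are not meant to carry the deletion. Per3, a period gene of the negative limb, was at 17.8 and 19.5 CPM in WT and 6.60 and 9.21 CPM in aKO (-1.24, SE 0.54). The WT pair and the aKO pair were further apart than either pair within itself. Per1 ran the other way, at 13.6 and 8.20 CPM in WT and 19.0 and 30.3 CPM in aKO (1.18, SE 0.58). Nr1d1 (REV-ERB alpha), a direct BMAL1 target and repressor of Arntl, was at 12.5 and 77.8 CPM in WT and 11.03 and 8.20 CPM in aKO (-2.23, SE 0.86), and without WT 202 its log2 fold change was -0.35. Bhlhe40, a repressor that competes for E-boxes, showed the same layout, with 12.2 and 41.5 CPM in WT and 9.66 and 10.99 CPM in aKO. For both genes WT 202, the library with the highest astrocyte and neuron marker sums, was the only one far from the other 3, and the part of those cells in it was not tested. Of the others with the highest mean CPM, Csnk1e, Csnk1d, Bhlhe41 and Rora overlapped, with log2 fold changes between -0.19 and 0.43.

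Of 12 clock output genes, 4 were above 0 and 8 below. In both aKO libraries 3 were lower (17.7% of all genes) and 1 (Wee1) higher (15.5% of all genes). The median was -0.36, which was 0.0097 without WT 202. Tsc22d3, a glucocorticoid-induced leucine zipper whose level follows the daily hormone cycle, was at 268 and 514 CPM in WT and 154 and 89.0 CPM in aKO (log2 fold change -1.69, SE 0.69). Usp2, a clock-controlled ubiquitin protease, was at 141 and 183 CPM in WT and 93.9 and 105 CPM in aKO. Dbp, a D-box activator often used as a readout of BMAL1 activity, was at 21.4 and 16.1 CPM in WT and 18.0 and 9.56 CPM in aKO, and its groups overlapped. Ciart, a repressor of CLOCK and BMAL1, was at 33.3 and 18.1 CPM in WT and 17.4 and 3.79 CPM in aKO. Tef and Cdkn1a overlapped, with log2 fold changes of 0.23 and 0.11. Chil1, which encodes the astrocyte-secreted protein YKL-40, was at 34.1 and 72.7 CPM in WT and 36.4 and 14.3 CPM in aKO, in parallel with the astrocyte markers.

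The promoters of Per3 and Ciart are shown because, of the circadian genes lower in both aKO libraries that matched the table, these 2 held a clock element. The windows are the 250 bases before the gene start, from RefSeq on GRCm38.p6, and both genes lie on the minus strand: Per3 at chr4:151044666-151044915 and Ciart at chr3:95882229-95882478. In Per3 the capitals mark the D-box (TTATGTAA or TTACATAA), and in Ciart the E-box CACGTG.
Per3: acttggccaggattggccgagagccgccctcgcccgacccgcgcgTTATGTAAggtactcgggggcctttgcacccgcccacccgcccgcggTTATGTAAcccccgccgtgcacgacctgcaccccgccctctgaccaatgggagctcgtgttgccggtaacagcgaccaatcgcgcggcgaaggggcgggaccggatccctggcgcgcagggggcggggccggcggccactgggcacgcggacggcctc
Ciart: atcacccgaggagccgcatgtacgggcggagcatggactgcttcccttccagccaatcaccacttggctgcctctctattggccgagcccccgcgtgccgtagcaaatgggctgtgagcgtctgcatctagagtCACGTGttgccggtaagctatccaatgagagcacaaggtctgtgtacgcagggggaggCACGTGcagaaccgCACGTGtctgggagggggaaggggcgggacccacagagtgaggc
The Per3 matches start 205 and 158 bases before the gene start, and those of Ciart 116, 58 and 44 bases before it. The E-box was found in 3 of the 14 core clock promoters and 3 of the 11 clock output promoters matched, and in 6.86% of all promoters. The D-box was found in 1 of the 14, in 1 of the 11 and in 0.977% of all. Per1, whose window holds an E-box, was higher in both aKO libraries, so the letters did not go with 1 direction.

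**Figure D4:**
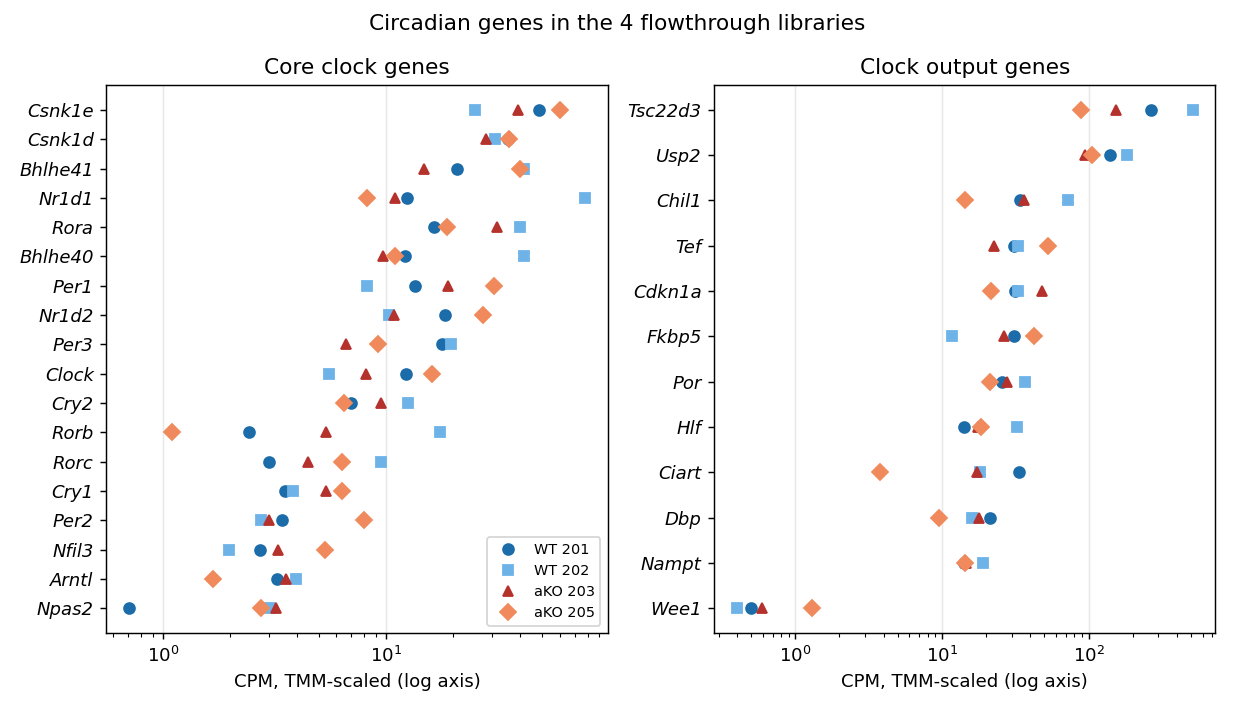
CPM (log axis) of 18 core clock and 12 clock output genes in the 2 WT (blue) and 2 aKO (red) flowthrough libraries, ordered by mean. Per3 shows 2 separate pairs (17.8 and 19.5 against 6.60 and 9.21 CPM), whereas Nr1d1 is set apart by WT 202 alone (77.8 CPM).

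A list of 5 genes that an earlier analysis of the isolated astrocytes had called was traced in flowthrough. This list was chosen on the astrocyte libraries of the series, 4 of which come from the same animals, and is no independent evidence of direction. Rpe65, the retinoid isomerase, was at 0.365 and 4.00 CPM in WT and 0.133 and 0.032 CPM in aKO, from 16, 170, 7 and 1 counts (log2 fold change -4.59, SE 1.38). Oas2, a 2'-5' oligoadenylate synthetase, was at 0.434 and 0.871 CPM in WT and 3.67 and 1.49 CPM in aKO (1.98, SE 0.86). Both genes kept WT and aKO apart at very low levels. Cxcl5, a chemokine for neutrophils, was at 0.023 and 0.424 CPM in WT and 3.78 and 0.130 CPM in aKO. Hebp2, a heme-binding protein, was at 5.29 and 2.43 CPM in WT and 12.5 and 3.83 CPM in aKO. Spon2, a secreted matrix protein, was at 0.342 and 1.60 CPM in WT and 3.21 CPM in aKO 203, and had 0 counts in aKO 205, which allows up to 0.0909 CPM. For these 3 genes the groups overlapped, and aKO 205 held the fewest astrocyte marker counts.

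Rpe65 and Oas2 were also set against that astrocyte RNA. Per 10000 astrocyte marker counts of the same library, Rpe65 took 2.65 and 5.75 in WT flowthrough and 0.459 and 0.386 in aKO flowthrough, beside 5.34 to 22.6 in 3 WT and 0.233 to 1.29 in 5 aKO astrocyte libraries. Oas2 took 3.15 and 1.25 in WT and 12.7 and 17.8 in aKO flowthrough, beside 0.681 to 1.84 and 7.94 to 26.3 in the astrocyte libraries. Cxcl5 took 0.166 and 0.609 in WT and 13.05 and 1.55 in aKO flowthrough, and its groups no longer overlapped, but this rests on 1 count in WT 201 and 4 counts in aKO 205. Spon2 took 2.49 and 2.30 in WT and 11.1 and 0 in aKO, and still overlapped. Hebp2 took 38.5 and 3.49 in WT and 43.1 and 45.6 in aKO. For these genes the flowthrough values did not all lie in the range of the astrocyte libraries. In WT and aKO astrocyte libraries Cxcl5 took 0.553 to 1.23 and 20.2 to 40.3. Spon2 took 0.0636 to 0.982 and 49.8 to 102 there, and Hebp2 took 1.79 to 4.64 and 12.5 to 27.7. Whether astrocytes left in the flowthrough carried these transcripts was not tested.

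The genotype effect in flowthrough was also set against that in astrocytes, in a fit of all 12 libraries. Of 20637 genes, 0 (0%) passed the edgeR test of the difference at an adjusted p under 0.05, and 499 (2.42%) had an unadjusted p under 0.05. DESeq2 and voom also called 0, with 731 and 473 genes at that unadjusted level. In a fit of the 8 libraries from 4 brains that gave flowthrough and astrocytes, 1 gene (Igha) passed both with and without the animal as a block. Spon2 had an effect lower by 5.26 log2 units in flowthrough than in astrocytes (SE 1.75), Cdkn1a one lower by 1.78 (SE 0.64) and Arntl one lower by 1.62 (SE 0.79), each with an edgeR adjusted p of 0.956. In the astrocyte libraries Arntl counts were higher in aKO (log2 fold change 1.31, SE 0.48), at 5.90 to 17.8 per 10000 astrocyte marker counts in 5 aKO and 2.63 to 3.37 in 3 WT libraries, so whole-gene counts of Arntl do not check the deletion. Per3 differed by 0.10 (SE 0.78) and Rpe65 by -0.54 (SE 1.17). None of these differences was larger than the spread the model allows after adjustment.

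Most glycolytic genes had a lower mean level in aKO. Of 11, 10 were below 0, with a median of -0.86, and -0.68 with the gene length trend removed. In 6, both aKO libraries lay below both WT libraries (17.7% of all genes, 22.2% of those with a mean log2 CPM of at least 3). The list's median length was 2754 bases, and 24.8% of protein-coding genes of 2567 to 3112 bases lay below. Aldoa, a fructose-bisphosphate aldolase, was at 1772 and 2053 CPM in WT and 1644 and 463 CPM in aKO (log2 fold change -0.86, SE 0.73). Eno1, an enolase, was at 874 and 1442 CPM in WT and 665 and 180 CPM in aKO (-1.45, SE 0.77). Gapdh was at 875 and 1291 CPM in WT and 1211 and 217 CPM in aKO and overlapped. In each of them aKO 205 was the lowest library. Without aKO 205 the list's median was -0.40 and without aKO 203 it was -2.06. Of 14 cholesterol synthesis genes 11 were below 0 (median -0.75), and Msmo1, a sterol C4-methyl oxidase, was at 64.0 and 162 CPM in WT and 38.2 and 22.6 CPM in aKO. That median turned to 0.15 without WT 202. Of the 13 antioxidant genes 9 were below 0 (median -0.32). In both aKO libraries 2 were higher (15.5% of all genes) and 3 lower (17.7% of all genes). Prdx1, a peroxiredoxin, was at 1369 and 1208 CPM in WT and 1732 and 317 CPM in aKO, and Gpx1, a glutathione peroxidase with the lowest fold change of the list, was at 262 and 324 CPM in WT and 117 and 105 CPM in aKO (-1.40, SE 0.63). Of the 13 mitochondrially encoded genes 12 were below 0, with a median of -0.26, and 1 had both aKO libraries below (17.7% of all genes). That median was 0.16 without aKO 205, -0.75 without aKO 203 and -0.60 with the length trend removed.

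Stress and activation genes split. Of 13 immediate early genes tested (Egr3 was under the filter), 8 were above 0 and 5 below, with a median of 0.47. In both aKO libraries 3 were higher (15.5% of all genes) and 4 lower (17.7% of all genes). Btg2, an antiproliferative early gene, was at 366 and 360 CPM in WT and 370 and 639 CPM in aKO, and Fos at 198 and 171 CPM in WT and 161 and 147 CPM in aKO. Zfp36, which speeds the decay of cytokine mRNAs, was at 170 and 218 CPM in WT and 81.3 and 101 CPM in aKO (log2 fold change -1.09, SE 0.63). Of 10 heat shock genes 8 were above 0 (median 0.41). Hspa8, the constitutive chaperone of that family, was nevertheless at 898 and 1589 CPM in WT and 458 and 344 CPM in aKO (-1.63, SE 0.65). Without aKO 205 the medians of the immediate early and heat shock lists were -0.04 and -0.06. Of the 13 pan-reactive astrocyte genes 5 were above 0 and 8 below, and Gfap, the intermediate filament of reactive astrocytes, was at 6.00 and 71.7 CPM in WT and 23.9 and 5.15 CPM in aKO, in the order of the astrocyte marker sum.

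Ranking genes with an official symbol and a mean log2 CPM of at least 3 (predicted genes with a Gm number, Rik genes, pseudogenes and immunoglobulin or T cell receptor segments left out) by the gap between the groups brought out genes outside the lists. The ranking used the same contrast, so its values are a description. Among 8293 genes at that level, 22.2% had both aKO libraries below both WT libraries and 14.9% had both above. Sf3b5, a small subunit of the SF3B splicing complex (chromosome 10, 13005343 to 13009183 in GRCm38), had the widest gap, at 59.2 and 105 CPM in WT and 11.9 and 6.26 CPM in aKO (log2 fold change -3.18, SE 0.71). DESeq2 called it with an adjusted p of 0.00773, and edgeR without the count filter with 0.0263. Mrpl52 was at 68.5 and 50.7 CPM in WT and 12.7 and 9.43 CPM in aKO, and Mrpl17 at 90.8 and 95.6 CPM in WT and 23.4 and 16.1 CPM in aKO. Both encode proteins of the large mitochondrial ribosome subunit, as does Mrpl4, seventh in the ranking. Id3, an inhibitor of basic helix-loop-helix factors, was at 235 and 262 CPM in WT and 64.2 and 45.9 CPM in aKO (-2.17, SE 0.65). In these 4 genes every WT library was at least 3.66 times every aKO library. The fifth to twelfth were C5ar1, Bid, Mrpl4, Ndufa6, Ifit3, Actl6a, Slc46a1 and Lpar6, with log2 fold changes between -1.87 and -2.39. Bid, Actl6a and Lpar6 share exonic sequence with neighbours (Bcl2l13, Mrpl47 and Rb1), so their reads may be split.

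Rd3l, a relative of the retinal gene Rd3 (chromosome 12, 111979111 to 111981317 in GRCm38), had the widest gap upward among these genes, at 8.53 and 6.92 CPM in WT and 32.8 and 32.1 CPM in aKO (log2 fold change 2.07, SE 0.55). Rsph10b, a radial spoke protein of motile cilia whose exons overlap Pms2, was at 15.4 and 14.7 CPM in WT and 45.3 and 65.0 CPM in aKO (1.87, SE 0.59). Acbd7, an acyl-CoA binding protein, was at 8.42 and 7.32 CPM in WT and 16.8 and 17.3 CPM in aKO, and Lockd, a noncoding RNA beside Cdkn1b, at 6.32 and 5.44 CPM in WT and 11.9 and 22.3 CPM in aKO. Of the predicted genes left out, Gm10800 had a wider gap than Rd3l, at 19.9 and 19.6 CPM in WT and 91.7 and 118 CPM in aKO, and Gm42418 a wider one than Acbd7. In each of the 4 ranked genes the WT libraries lay within 1 or 2 CPM of each other. The fifth to twelfth were Edil3, Notch3, Fam189a2, Ptges2, Phldb1, Ins2, Mir6236 and Cox8b, with log2 fold changes between 0.88 and 2.06. Ins2, an insulin gene that the choroid plexus transcribes, was at 28.9 and 11.6 CPM in WT and 50.1 and 94.8 CPM in aKO, in parallel with the choroid plexus markers except that WT 201 stood above aKO 203 for those. For all 24 genes the direction held in each alternative and with each library left out. The genes were picked for groups that did not overlap, so this follows largely from the choice and adds no support. The adjusted p of edgeR was 0.950 for each.

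**Figure D5:**
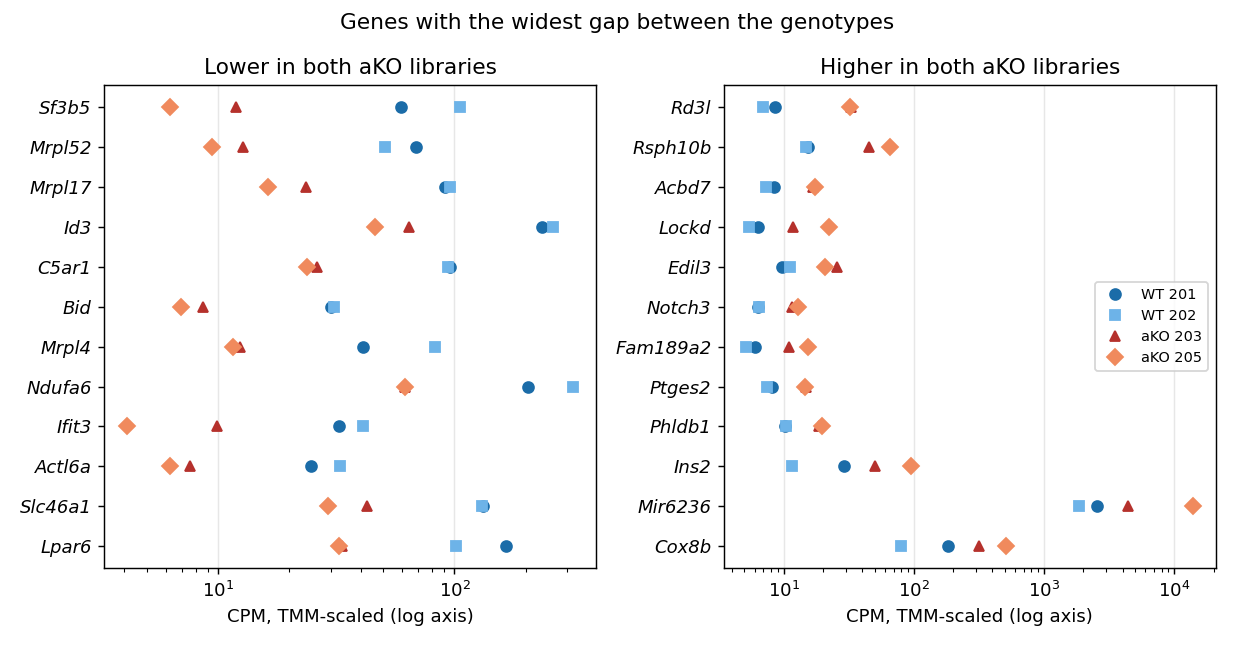
CPM (log axis) of the 12 genes with an official symbol and the widest gap below (left) and above (right) the WT libraries, predicted genes left out, 1 point per library. Sf3b5 runs from 59.2 and 105 CPM in WT (blue) to 11.9 and 6.26 CPM in aKO (red), and Rd3l from 8.53 and 6.92 to 32.8 and 32.1 CPM.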

How the data were processed

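RNA-seq libraries of brain flowthrough from 2 WT and 2 aKO mice were compared. Per the submitters' processing notes, the authors' tools included STAR 2.5.1a, bcl2fastq, featureCounts 1.4.6-p5 and Subread, with GRCm38. The sources used here do not give the annotation release, strand setting or treatment of multiply matching reads, and antisense or overlapping genes may share reads. The RNA was amplified with a SMARTer kit, per the labels' protocols. The deposited files hold, for 41388 Ensembl genes, the read count, the CPM and the RPKM that the authors computed. The deposited CPM and RPKM entered only a check against the counts, and all results use the deposited counts. GENCODE vM21 named 40254 genes, and the other 1134 (at most 0.116% of a library) stayed in.

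Groups were taken from the titles. Counts of the 4 flowthrough libraries entered a test by edgeR 4.0.16, run in R 4.3.3 (robust quasi-likelihood test, TMM, filterByExpr with minimum count 10 and minimum total 15), two-sided, with Benjamini-Hochberg adjustment over all genes tested and a threshold of 0.05. An SE was taken as the log2 fold change over the root of its F statistic. The 38 lists (417 symbols, all found, 414 past the filter) are described by counts and medians. Named were Arntl, the circadian genes, up to 4 members of each list with the highest mean CPM, the 5 astrocyte genes with Cdkn1a, and the 12 genes with the widest gap between groups in each direction (log2 CPM, prior count 2). Other genes were named after their values were seen, and some genes are not reported here. The members and lists were chosen with earlier results of these data known. A list's share is its summed count over the library total. Alternatives were DESeq2 size factors, scaling without choroid plexus genes, no filter, DESeq2 1.42.0, limma 3.58.1 voom with sample weights, all 12 libraries in 1 fit and each library left out. Removal of a gene length trend (a lowess per library on log2 length) and counts relative to astrocyte markers were added after seeing the data. The scripts were tested on simulated counts.

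The difference between the flowthrough and astrocyte effects used all 12 libraries. Astrocyte library 202 is WT by its title and knockout by its genotype field. It counted as WT, and an alternative left it out. Flowthrough and astrocyte libraries of 1 number were read as 1 animal. Their deviations from the group means correlated at r of 0.01, 0.53, 0.19 and 0.52 for 201, 202, 203 and 205, where the 2 flowthrough libraries of a group have exactly opposite deviations. Counting error is small at this depth for genes with many counts. It is not small for genes with few, such as Cxcl5 (1, 18, 199 and 4 counts in 201, 202, 203 and 205). For all genes, 2 libraries a group limit the precision.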

Additional observations from a re-analysis of the deposited data

How the results depend on the processing

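No gene passed in edgeR's flowthrough comparison under DESeq2 size factors, scaling without choroid plexus genes, voom, all 12 libraries or the length trend removed. DESeq2 called 5 genes, edgeR without the count filter 38 (19 of them immunoglobulin segments), and leaving out 1 library gave 0 to 38 (38 without WT 201, 16 without WT 202, 0 without aKO 203 or aKO 205). No paired analysis was possible for the flowthrough comparison because WT and aKO share no animal. For the difference between fractions, no filter gave 40 calls, the 8 libraries of the 4 paired animals gave 1 with the replicate block and 1 with no replicate block (Igha in both), and leaving out a flowthrough library gave 0. The median of all genes moved from -0.07 to 0.07 in the fit of 12 libraries, to 0.11 without WT 202 and to -0.24 without aKO 203.

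The median of the complement list was -0.20 in the fit of 12 libraries and -0.20 with the length trend removed. Leaving out each library in turn, list medians ran from -2.56 to 0.82 (astrocyte), -0.40 to 0.15 (microglia), -0.029 to 1.14 (choroid plexus), 0.0057 to 1.02 (later neutrophil), -2.47 to 1.79 (neutrophil primary granule), -1.93 to -0.64 (lysosome), -1.33 to -0.45 (interferon), -2.25 to -0.24 (MHC class II), -0.56 to -0.22 (complement), -0.41 to -0.063 (disease-associated microglia), -2.06 to -0.40 (glycolysis), -1.22 to 0.15 (cholesterol synthesis), -0.26 to 0.33 (core clock), -0.58 to 0.0097 (clock output), -0.037 to 0.78 (immediate early), -0.062 to 0.69 (heat shock), -1.83 to 1.80 (neuron), 0.050 to 1.29 (erythroid), -0.75 to 0.16 (mitochondrially encoded) and -0.63 to 1.14 (oligodendrocyte). The highest astrocyte, neuron and oligodendrocyte medians were those without WT 202. The log2 ratio of mean shares (aKO over WT) relative to microglial markers was 1.11 for later neutrophil genes, against 0.49 of the library total, and 0.14 for interferon genes, against -0.48. The causes were not tested.

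Among named genes, Spon2 was at -1.22 under voom and between -8.25 and 2.24 with a library left out, and Cdkn1a at -0.044 under voom and between -0.59 and 0.58. Cxcl5 ran from -0.77 to 6.27 and Hebp2 from -0.024 to 1.79, each lowest without aKO 203. Rpe65 passed without the filter (edgeR adjusted p = 0.0464) and without WT 201 (edgeR adjusted p = 0.0146), at log2 fold changes of -4.60 and -5.42. A fit without 1 library leaves 1 in its group, which is assumed to vary like the other group's pair.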

Other observations

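Gene families outside the lists were looked at after the fold changes had been seen. Of 82 cytosolic ribosomal protein genes tested, 66 had a log2 fold change above 0 and 60 had both aKO libraries above both WT libraries (15.5% of all genes), with a median of 0.58, and 0.64 with the gene length trend removed. Rps14 was at 1906 and 1704 CPM in WT and 2732 and 3567 CPM in aKO. Of 37 genes for subunits of respiratory complex I, 28 were above 0 and 22 higher in both aKO libraries. That share was 15.5% of all genes and 24.0% of protein-coding genes of 201 to 1421 bases. The median was 0.65, and 0.63 with the gene length trend removed. Ndufa4 was at 1528 and 792 CPM in WT and 1876 and 2821 CPM in aKO, whereas Ndufa6 was at 205 and 319 CPM in WT and 61.7 and 61.9 CPM in aKO. The 76 mitochondrial ribosomal protein genes went both ways, with 23 higher (15.5% of all genes) and 19 lower (17.7% of all genes) in both aKO libraries. Their median was -0.10, and 0.09 with the gene length trend removed. Of 39 proteasome subunit genes 31 were below 0 and 13 lower in both aKO libraries (17.7% of all genes). Their median was -0.37, and -0.24 with the gene length trend removed. Protein-coding genes of 2015 to 2566 bases were near these values, with 28.8% lower and a median of -0.40. The median gene length was 1454 bases for the cytosolic ribosomal, 1243 for the complex I and 2169 for the proteasome genes.

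Lars2, Gm42418, Mir6236 and Gm26917, 4 loci that hold or overlap ribosomal RNA sequence, were picked after values had been seen. Each was higher in both aKO libraries (15.5% of all genes), and that count is no survey of such loci. Gm42418 was at 4640 and 2986 CPM in WT and 10716 and 14173 CPM in aKO, and together the 4 took 1.45% and 1.10% of counts in WT and 2.72% and 6.75% in aKO. Gm10800, a predicted gene, was at 19.9 and 19.6 CPM in WT and 91.7 and 118 CPM in aKO. Cxcr6, a chemokine receptor of T cells, was at 14.5 and 9.42 CPM in WT and 1.69 and 2.63 CPM in aKO.

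Of the 5 genes that DESeq2 called, 3 were immunoglobulin variable segments: Igkv4-72 had 903, 67, 2 and 0 counts in WT 201, WT 202, aKO 203 and aKO 205, Ighv14-4 had 0, 0, 244 and 13, and Igkv5-48 had 52, 130, 4 and 0. The other two were Sf3b5 and Dsg3, a desmosomal cadherin with 24, 15, 1995 and 23 counts, nearly all of them in aKO 203. In WT 201 a single heavy chain segment, Ighv9-3, held 53.4% of the heavy chain segment counts, and the leading heavy chain segment differed in each of the 4 libraries (Ighv5-9-1 in WT 202, Ighv14-4 in aKO 203 and Ighv1-81 in aKO 205). Among kappa segments Igkv6-15 led in both WT 202 and aKO 203, and among the 3 lambda segments Iglv1 led in all 4 libraries.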
